A study of Mus musculus with 2 samples.

Results

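The genes described here are Egr1, Egr2, Egr3, Ier2, Ier3, Ier5, Zfp36, Btg2, Nr4a1 and Myc, immediate early genes outside the AP-1, Klf and Dusp families. They were taken by name, through the gene symbol that the platform annotation gives each probe set. The 10 genes have 15 probe sets on the array, of 18194 named genes and 45037 probe sets without the controls. All 15 probe sets are given below, and 9 of the 10 genes were measured, that is, brighter than a floor of 77.7 signal units on at least 1 array.

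RNA came from whole mammary gland of CD1 mice, an outbred stock, bought at 6 weeks of age, mated and suckling litters set to 6 pups. The day 1 group was killed 1 day after the pups were taken away at day 10 of lactation, and the day 0 group on the day of that forced weaning, when lactation was fully established. The RNA of each day was a pool from 5 mice, hybridised to 1 Affymetrix Mouse Genome 430 Plus 2.0 array, so there are 2 arrays and no replicate of either day. The question behind the comparison is how transcripts of the gland differ 1 day into involution, when the gland regresses because suckling has stopped. No test, p-value or error between days is possible, and "higher" or "lower" below describes these 2 pools.

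Immediate early genes are transcribed within minutes of a signal reaching the cell, from factors that are already present and without new protein synthesis. Serum response factor with its Elk and Mrtf partners, CREB, NF-kappaB and Stat proteins act at their promoters, and their transcripts are short-lived. Their products are mostly transcription factors, such as the Egr zinc finger proteins, Nr4a1 and Myc, or proteins that restrain the response, such as Zfp36, which speeds the decay of AU-rich mRNAs. In the mouse mammary gland, milk stasis after weaning activates Stat3 and begins the death and shedding of alveolar cells.

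Sequence just before the transcript start was available from RefSeq (GRCm38.p6) for 6 of the 10 genes: Btg2, Egr2, Ier3, Ier5, Nr4a1 and Zfp36. Shown whole are the 250 bases before the start of Ier3, Btg2 and Ier5, whose signals were more than 2-fold higher on day 1, and of Zfp36, whose signal was lower. Both CArG boxes of Egr2, the binding motif of serum response factor, are shown in short windows because Zfp36 and Egr2 were the genes that held this motif. Sequences run 5′ to 3′ on the strand of the gene, and capitals mark every match to a motif listed after them. The capitals that end the last window belong to a CRE core match (TGACG) on the other strand, which runs past the window.
Ier3, chr17:35821463-35821712, plus strand: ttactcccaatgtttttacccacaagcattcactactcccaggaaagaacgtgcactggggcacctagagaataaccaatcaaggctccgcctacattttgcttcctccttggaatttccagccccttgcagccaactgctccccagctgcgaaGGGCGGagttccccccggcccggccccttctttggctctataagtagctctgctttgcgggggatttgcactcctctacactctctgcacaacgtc
Btg2, chr1:134079156-134079405, minus strand: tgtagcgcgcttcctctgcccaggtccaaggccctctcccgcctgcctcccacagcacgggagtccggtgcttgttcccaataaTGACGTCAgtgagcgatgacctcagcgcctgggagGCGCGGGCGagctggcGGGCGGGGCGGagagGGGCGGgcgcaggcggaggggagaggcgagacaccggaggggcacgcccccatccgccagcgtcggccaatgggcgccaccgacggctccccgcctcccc
Ier5, chr1:155099637-155099886, minus strand: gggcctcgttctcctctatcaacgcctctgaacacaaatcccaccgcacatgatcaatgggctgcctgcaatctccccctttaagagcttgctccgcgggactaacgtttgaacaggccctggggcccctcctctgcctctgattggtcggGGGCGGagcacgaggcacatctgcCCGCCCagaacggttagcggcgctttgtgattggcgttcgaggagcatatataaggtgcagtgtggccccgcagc
Zfp36, chr7:28379229-28379478, minus strand: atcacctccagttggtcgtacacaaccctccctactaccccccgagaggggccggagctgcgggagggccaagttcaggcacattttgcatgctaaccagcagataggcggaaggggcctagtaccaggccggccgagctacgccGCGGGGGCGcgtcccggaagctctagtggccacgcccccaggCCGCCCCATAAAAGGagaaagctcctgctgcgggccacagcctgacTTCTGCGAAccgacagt
Egr2, chr10:67537484-67537513, plus strand: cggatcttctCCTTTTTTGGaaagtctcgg
Egr2, chr10:67537787-67537816, plus strand: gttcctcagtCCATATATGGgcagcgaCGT

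Matches to 10 motifs were counted on both strands in the 250 bases before each start, beside the share of all 32851 RefSeq starts that held the same motif. The CRE (TGACGTCA, bound by CREB), present before 1.55% of starts, was found in Btg2, with its first base 166 bases before the start. Its core (TGACG, contained in the CRE) was before 17.8% of starts, and among these genes in Btg2, Egr2 and Nr4a1, the last with 4 matches. The CArG box, before 1.47% of starts, was found in Zfp36 at 58 bases before the start and in Egr2. The Egr site (GCGNGGGCG), before 4.70% of starts, was found in Btg2, Zfp36 and Nr4a1. The STAT site (TTCNNNGAA, 7.02% of starts) was found in Zfp36 and the NF-kappaB site (5.00%) before 1 Egr2 start. The E-box (CACGTG, 6.02%) was found before 1 Egr2 start. The AP-1 site (TGANTCA, 6.75%) and the exact TATA box letters (TATAAA, 12.4%) were found in none of the 6 genes. Near matches were not searched, such as tataag in the Ier3 and Ier5 sequences above. The GC box (GGGCGG, 32.7%) was found before at least 1 start of each of the 6 genes, and in Zfp36 it shares a base with the CArG box. A gene is named if any of its starts held the motif, and Egr2 has 5 starts. Counts of genes are therefore not like for like with the shares of starts. Ier3 and Ier5 held no exact match to a listed motif other than GC boxes. A match describes these letters only, and no occupancy was measured.

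**Figure D1:**
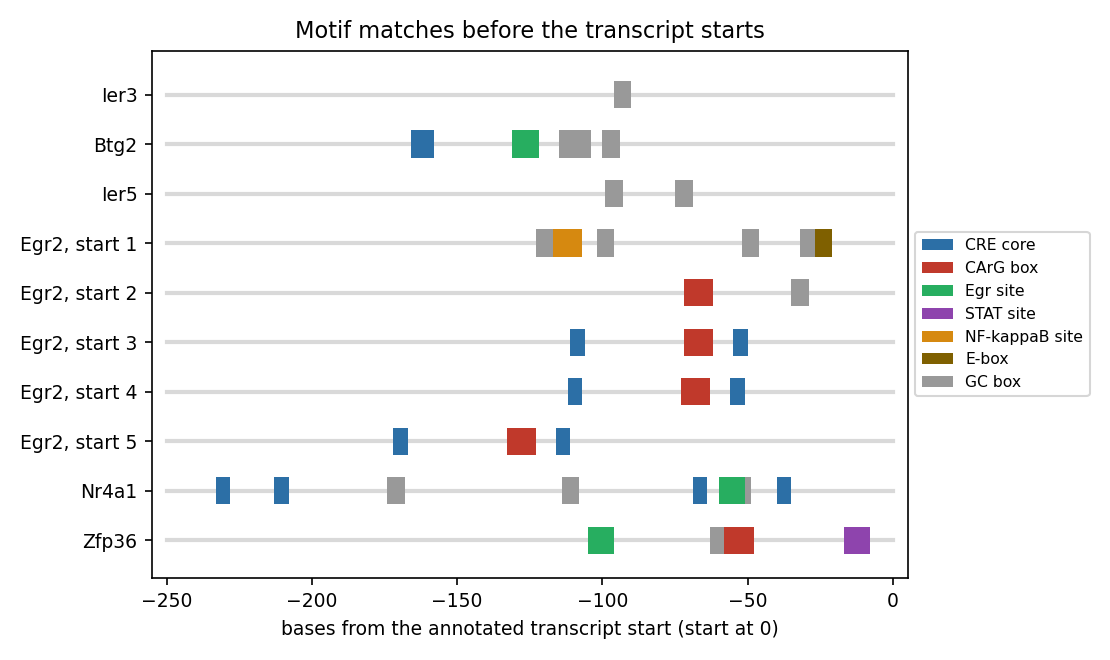
Positions of motif matches in the 250 bases before each annotated start, in bases from the start at 0 on the horizontal axis. Each row is 1 start (Egr2 has 5), coloured blocks are matches, and the CArG box appears in Zfp36 and at 4 of the 5 Egr2 starts.

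Of the 9 measured genes, 4 had a day 1 signal at least 2-fold above that of day 0, and 0 were lower by that much. Among all 13240 measured genes, 10.4% were past 2-fold upward and 13.3% past it downward. In the mean signal range of the measured members (73.25 to 1836), these shares were 11.1% and 14.8%. The median log2 ratio of the 9 genes was 0.70, and that of all measured genes was -0.12. Egr2, under the floor on day 0, entered the former at its lower bound. The 9 genes are few and were chosen with earlier results of these data known, so these values describe them and test nothing. The 4 higher genes were Ier3, Btg2, Ier5 and Egr1.

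The Ier genes, named for immediate early response, encode unrelated or distantly related proteins and behaved differently from each other. Ier3, which modulates cell survival and is a target of NF-kappaB, had a signal of 3075.2 on day 1 and 597.7 on day 0. It was thus 5.15-fold higher on day 1 (log2 ratio 2.36), and 98.9% of measured genes had a lower ratio. Within its own array the probe set stood at percentile 97.5 of all probe sets on day 1 and at percentile 87.85 on day 0, so Ier3 moved up in rank as well as in scaled signal. Its only probe set is of the type shared between transcripts of a gene.

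Ier5, which encodes a nuclear regulator of the heat shock response, had probe sets that disagreed. The brightest had 1355.7 on day 1 and 495.5 on day 0, 2.74-fold higher on day 1. A second, dimmer probe set had 128.4 on day 1 and 148.5 on day 0, a log2 ratio of -0.21, and the remaining probe set was at the floor on both arrays (54.9 on day 1 and 21.6 on day 0). The brightest probe set alone was past 2-fold, and the mean log2 ratio of both measured probe sets was 0.62.

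Ier2, a nuclear protein gene that is induced by serum, was almost level, with 388.7 on day 1 and 361.9 on day 0 (log2 ratio 0.10). Its place among all probe sets of its array was also close, at percentile 81.7 on day 1 and 81.2 on day 0. Ier2 therefore lay apart from Ier3, by more than 2 log2 units on the same pair of arrays.

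**Figure D2:**
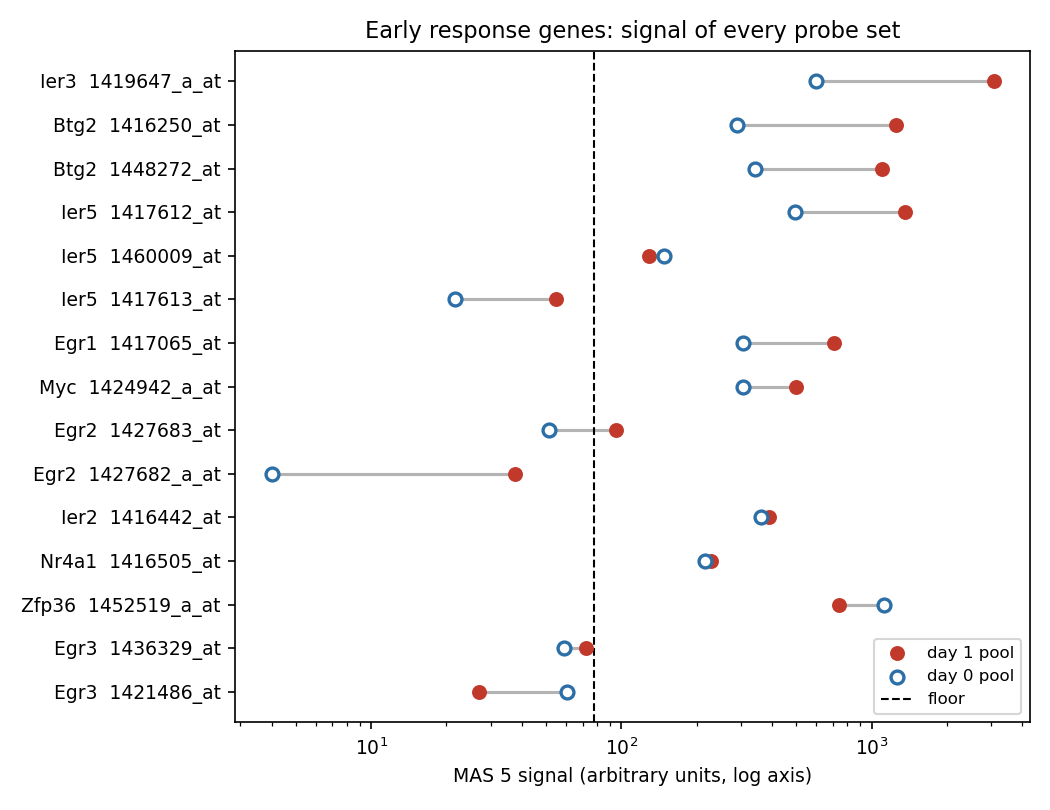
MAS 5 signal (log axis) of all 15 probe sets of the 10 genes, with day 1 as filled and day 0 as open circles and the floor of 77.7 as a dashed line. Both Btg2 probe sets are higher on day 1, the 3 Ier5 probe sets differ, and both Egr3 probe sets stay left of the floor.

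Of the transcription factor genes, Egr1 was the one past 2-fold. Egr1, a zinc finger factor that binds GC-rich sites, had a signal of 710.2 on day 1 and 305.7 on day 0, 2.32-fold higher on day 1. Of all measured genes, 92.7% had a lower ratio. Egr2, a relative known for its role in Schwann cells, was dim, with 94.9 on day 1 and 51.6 on day 0 at its brighter probe set. Because its day 0 signal was under the floor, Egr2 was at least 1.22-fold higher. Its other probe set (37.7 on day 1 and 4 on day 0) was under the floor on both arrays.

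Egr3, the remaining Egr gene of the group, was not measured: its probe sets had 71.9 and 26.9 on day 1, and 59.2 and 60.5 on day 0, all under the floor. No ratio is given for it. Egr4, the paralog outside the 10 genes, was also under the floor, with 11 on day 1 and 11.5 on day 0. Within the Egr family a signal above the floor on both arrays was thus found for Egr1.

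Myc, which drives cell growth together with its partner Max, had 498.2 on day 1 and 307 on day 0. It was 1.62-fold higher on day 1, under 2-fold, with a lower ratio in 82.7% of measured genes. Nr4a1, an orphan nuclear receptor, was level, with 228.8 on day 1 and 215.5 on day 0 (log2 ratio 0.09). Its paralogs lay on the lower side: Nr4a2 had 89.7 on day 1 and 346 on day 0 at its brightest probe set, and Nr4a3 was at the floor on day 1 (45.8 on day 1 and 113.6 on day 0). Of the other 5 Nr4a2 probe sets, 1 was at least 2.76-fold lower and the others were under the floor on both arrays.

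The genes that restrain growth or the response itself went opposite ways. Btg2, which recruits the CCR4-NOT deadenylase, slows cell division and is a p53 target, had 2 probe sets that agreed. The brighter had 1255.4 on day 1 and 289.5 on day 0, and the other 1099.6 on day 1 and 340.8 on day 0. Btg2 was 4.34-fold and 3.23-fold higher on day 1 by these probe sets, the only member in which more than 1 probe set was past 2-fold. Zfp36, or tristetraprolin, had 738 on day 1 and 1116.5 on day 0. It was 1.51-fold lower on day 1 (log2 ratio -0.60), and it was the only member whose brightest probe set was dimmer on day 1, although under hybridisation control scaling its log2 ratio was 0.57.

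In order of log2 ratio the genes ran Ier3, Btg2, Ier5, Egr1, Myc, Egr2 (a bound), Ier2, Nr4a1 and Zfp36. The place of Egr2 is not settled: with the floor at the 25th percentile its log2 ratio was 0.88, above that of Myc (0.70). Its gaps to Myc and Ier2, counted below, rest on the bound. With no replicates, the spread between probe sets of the same gene is the only yardstick at hand, a pooled SD of 0.56 log2 over the 3945 genes for which this can be computed above the floor. It describes probe sets and not mice. By that measure 6 of the 8 gaps between neighbours were smaller than 1 SD, and the gaps between Btg2 and Ier5 (0.66) and between Nr4a1 and Zfp36 (0.68) were larger. The SD is that of single probe sets, and a difference between probe sets spreads more widely, so it sets none of these gaps apart. The gap between Egr1 and Myc, on either side of the 2-fold line, was 0.52, so that line does not separate groups of genes.

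**Figure D3:**
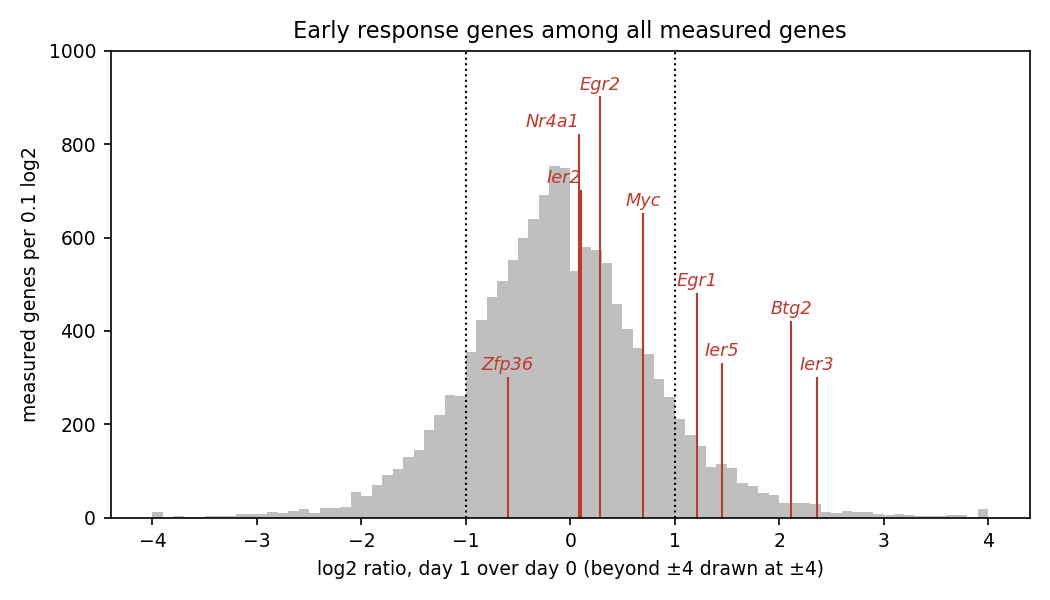
Log2 ratio of day 1 over day 0 for all 13240 measured genes (grey, genes per 0.1 log2) with the 9 measured genes marked in red and 2-fold as dotted lines. Ier3, Btg2, Ier5 and Egr1 lie right of the upper line, and Zfp36 lies left of 0 under the deposited scaling.

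The scaling of the arrays sets every ratio. Control transcripts added to the hybridisation (15 probe sets) ranged from -2.14 to -0.50 in log2 ratio around a median of -1.16. Scaling the arrays on them adds 1.16 to each log2 ratio above the floor, so any gene lower by less than that is above 0 under it. With that scaling 7 genes were at least 2-fold higher, Ier2, Nr4a1 and Myc joining the 4, and so were 48.7% of all measured genes, with 2.28% at least 2-fold lower. Scaling on ribosomal protein genes gave 5 genes, Myc joining the 4, against 20.8% of all genes higher and 7.47% lower. The median of the measured genes of the group lay above the median of all measured genes by 0.82 as deposited (9 genes). Under hybridisation control scaling and ribosomal protein scaling, where Egr3 was measured too, the difference was 0.59 and 0.55 (10 genes each).

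**Figure D4:**
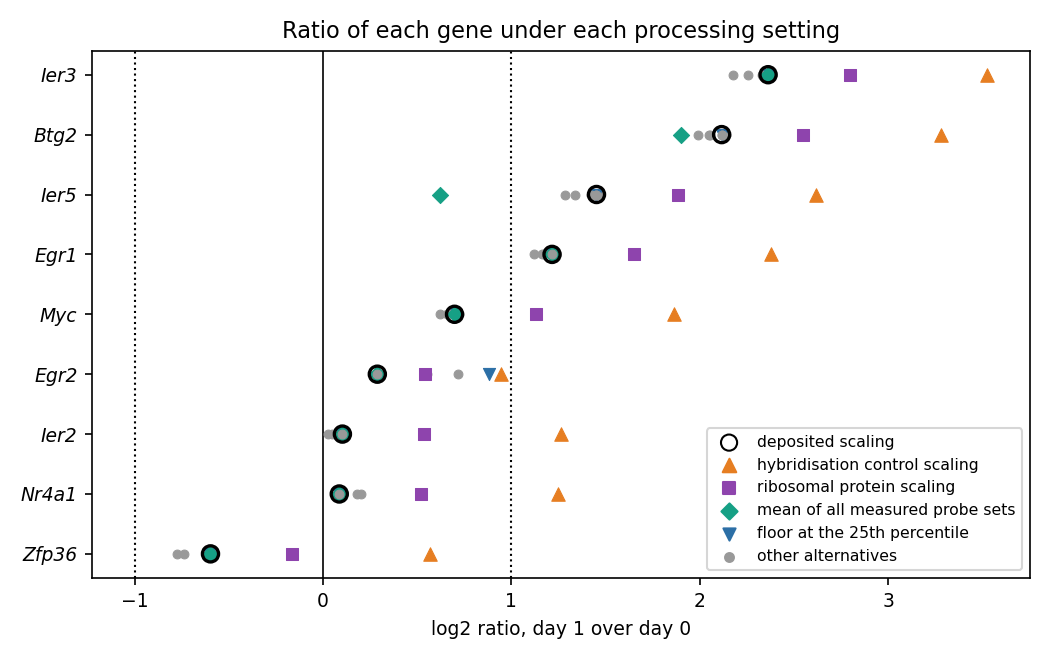
Log2 ratio of day 1 over day 0 of each measured gene under the deposited scaling (open circles) and 10 alternatives, with 2-fold as dotted lines. Ier3, Btg2 and Egr1 stay right of the 2-fold line throughout, Ier5 drops below it with the mean of its probe sets, and Zfp36 crosses 0 under hybridisation control scaling.

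Of the paralogs of these genes 11 were measured, of which 2 were past 2-fold upward and 3 downward, beside 10.4% and 13.3% of all measured genes. Their median log2 ratio was -0.55, or 0.12 under hybridisation control scaling, with 3 of 10 past 2-fold upward and 0 downward. The shares of all measured genes under that scaling were 48.7% upward and 2.28% downward. Btg1, an antiproliferative relative of Btg2, had 6980.7 on day 1 and 1237.2 on day 0, 5.64-fold higher, and its next probe set had a log2 ratio of 2.16. Tob1, of the same family and singled out after its value was seen, had 2214.5 on day 1 and 6247.8 on day 0, a log2 ratio of -1.50. Tob2, also named after its values were seen, had a log2 ratio of -0.87 at its brightest probe set, and its other probe sets were lower on day 1 too. Btg4, another Btg relative, was dim and at the floor on day 1 (34.4 on day 1 and 105.7 on day 0), so members of this family lay on both sides as deposited.

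As deposited, relatives of Zfp36 that bind the same AU-rich elements lay, at their brightest probe sets, on the other side of 0 from it. Under hybridisation control scaling Zfp36 was above 0 too, with a log2 ratio of 0.57. Zfp36l1 had 2705.9 on day 1 and 1468.7 on day 0, 1.84-fold higher, with 1.82-fold at its other probe set. Zfp36l2 had 3279.4 on day 1 and 1006.9 on day 0, 3.26-fold higher, but a dimmer probe set had a log2 ratio of -0.77. Ier5l, the paralog of Ier5, had 142.8 on day 1 and 171.9 on day 0. Btg3 was not among the genes named by a single symbol.

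Among 13 AU-rich mRNAs that Zfp36 is known to bind, 7 were measured, with 1 past 2-fold upward and 2 downward. These counts are within about 1 gene of the 10.4% and 13.3% of all measured genes. Their median log2 ratio was -0.64, or 0.26 under hybridisation control scaling, with 3 past 2-fold upward and 0 downward. That scaling put 48.7% of all measured genes past 2-fold upward and 2.28% downward. Ccl2, a chemokine gene, had 248.7 on day 1 and 16.1 on day 0, at least 3.20-fold higher. Tnf, the cytokine gene by which Zfp36 was characterised, had 138.9 on day 1 and 313.5 on day 0, 2.26-fold lower. Vegfa, an angiogenic factor gene, had 641.3 on day 1 and 1320.2 on day 0, 2.06-fold lower, with -0.28 log2 at its other probe set. The remaining 6 were under the floor on both arrays.

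Of the corepressors of Egr proteins and the partners of Myc, 0 of 12 measured genes were past 2-fold in either direction as deposited, beside 10.4% and 13.3% of all measured genes. Upward calls numbered 8 under hybridisation control scaling, 3 under ribosomal protein scaling and 1 after median centring, beside 48.7%, 20.8% and 10.7% of all measured genes. Nab1 had 1833.5 on day 1 and 1802.4 on day 0, and Nab2, which Egr proteins also induce, had 138.6 on day 1 and 74.1 on day 0, at least 1.78-fold higher. Max, the obligate partner of Myc, had 157.2 on day 1 and 258.4 on day 0, a log2 ratio of -0.72. Mxd1, an antagonist that competes for Max, had a log2 ratio of -0.79, and Mxi1, another one, had 1440.6 on day 1 and 725.2 on day 0, 1.99-fold higher, with at least 3.92-fold at its other probe set.

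Of 24 measured genes that Myc is known to activate, 2 were past 2-fold upward and 3 downward, near the 10.4% and 13.3% of all measured genes, with a median log2 ratio of 0.05. Under hybridisation control scaling 16 were past it upward and 1 downward, with a median of 1.21, and under ribosomal protein scaling 6 and 2. Shares of all measured genes were 48.7% upward and 2.28% downward under the former, and 20.8% and 7.47% under the latter. Cdk4, a cyclin-dependent kinase gene, had 1648.1 on day 1 and 421.7 on day 0, 3.91-fold higher, and both other probe sets lay at 1.69 log2. The other 2 of the 3 largest ratios were on the lower side. Odc1, ornithine decarboxylase, had 2129.5 on day 1 and 12548.9 on day 0, 5.89-fold lower, and Srm, spermidine synthase, had 873.4 on day 1 and 3816.6 on day 0, 4.37-fold lower. Both remaining Odc1 probe sets were also lower, with log2 ratios of -2.74 and -3.38.

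Of 8 measured genes that Egr factors are known to activate, 4 were past 2-fold upward and 1 downward, with a median log2 ratio of 1.04. Under hybridisation control scaling 7 were past it upward and 0 downward, and under ribosomal protein scaling 6 and 0. F3, tissue factor, had 559.9 on day 1 and 35.7 on day 0, at least 7.21-fold higher. Cd44, a hyaluronan receptor gene, had 841.8 on day 1 and 117.8 on day 0, 7.15-fold higher, with 6.54-fold at the next probe set. Icam1, a leukocyte adhesion molecule gene, had 304.1 on day 1 and 117.2 on day 0, 2.59-fold higher. These genes respond to other factors too, and the count as deposited is read beside the 10.4% and 13.3% of all measured genes. The counts under hybridisation control scaling are read beside 48.7% upward and 2.28% downward, and under ribosomal protein scaling beside 20.8% and 7.47%.

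Of 13 measured regulators that act upstream of these genes, 0 were past 2-fold upward and 1 downward as deposited, beside 10.4% and 13.3% of all measured genes, with a median log2 ratio of 0.14. Under hybridisation control scaling 9 of 14 were past it upward, 0 downward, and under ribosomal protein scaling 5 of 13 and 0. All measured genes had shares of 48.7% upward and 2.28% downward under the former, and 20.8% and 7.47% under the latter. The gene past 2-fold was Crtc1, a CREB coactivator gene at the floor on day 1 (77.3 on day 1 and 180.3 on day 0), at least 2.32-fold lower. Srf had probe sets on both sides, with log2 ratios of 0.59 and -0.53, and so had Elk3 (0.81 and -0.47) and Elk4 (0.71 and -1.22). Elk1 was under the floor on both arrays. Mrtfb, a coactivator of serum response factor, was 1.78-fold higher, whereas a dim probe set at the floor on day 1 had -0.34 log2 or less.

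Of 14 measured immediate early genes of the AP-1, Klf and Dusp families, 7 were past 2-fold upward and 1 downward, beside 10.4% and 13.3% of all measured genes, with a median log2 ratio of 1.17. Under hybridisation control scaling 13 were past it upward, and under ribosomal protein scaling 9, with 0 downward in both. These scalings put 48.7% and 20.8% of all measured genes past it upward, and 2.28% and 7.47% downward. Klf6 (1932.4 on day 1 and 180.5 on day 0) and Jun (1196.1 on day 1 and 132.4 on day 0) led them, followed by Fosl2 (812.8 on day 1 and 140.4 on day 0), which had -0.60 log2 at its other probe set. The other probe set of Jun had 1.14 log2. A further list of 18 measured immediate early genes had 8 higher and 5 lower, with a median of 0.78, and 11 higher and 1 lower under hybridisation control scaling. Gadd45b had 1468.7 on day 1 and 106.5 on day 0 at its brightest probe set, and log2 ratios of 3.08 and -0.36 at the others. Ccn2, a matricellular protein gene, had 1520.3 on day 1 and 126.6 on day 0, 12.0-fold higher. Sgk1, a kinase gene induced by glucocorticoids and serum, had 670.7 on day 1 and 5564.4 on day 0, 8.30-fold lower. No difference between these lists and the 10 genes was tested.

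**Figure D5:**
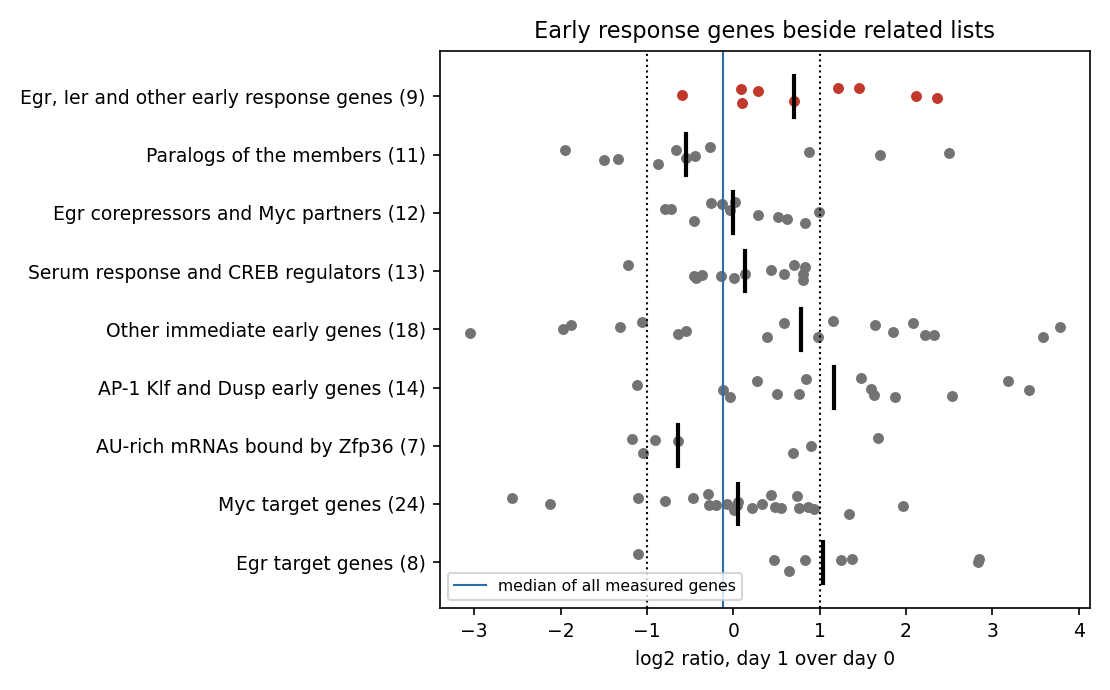
Log2 ratio of day 1 over day 0 for each measured gene (points) of the Egr, Ier and other early response genes (red) and 8 related lists (grey), with list medians as black bars, the number measured in brackets and 2-fold as dotted lines. As deposited, every list except the Egr corepressors and Myc partners has genes beyond 2-fold, and 6 of the 8 grey lists have them on both sides.

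Whole gland RNA mixes cell types, so fewer cells of a type and less RNA per cell cannot be told apart. The labelled tissue was borne out by its milk genes, whose 6 signals were between 31909 and 40090.2 on day 1 and between 76344 and 108570.5 on day 0. They summed to 217476.7 in the day 1 pool, against 534816.4 in the day 0 pool, and 6 of 6 were lower by 2-fold or more. These signals lie at the top of the range of each array (highest signal 40090.2 on day 1 and 108570.5 on day 0), all above 50% of it, where probes may be saturated. Their median log2 ratio of -1.26 is also close to the -1.16 of the hybridisation controls, so they identify the tissue and cannot show whether milk transcripts differed between the days. Of 6 luminal epithelial markers 4 were at least 2-fold higher and 1 lower, with a summed signal of 72025 on day 1 and 37981 on day 0. Of 6 macrophage markers 3 were higher and 1 lower, with a sum of 35752 on day 1, of which Cd14 made up 29010.6, and 9261 on day 0. Of 5 lymphocyte markers 3 were higher and 1 lower, 1 of 4 measured neutrophil markers was higher and 0 lower, and 1 of 6 endothelial markers was past 2-fold in each direction. The higher lymphocyte and neutrophil markers were all at the floor on day 0, so their ratios are bounds. These marker counts are as deposited, where 10.4% of all measured genes were past 2-fold upward and 13.3% downward. Adipocyte, fibroblast and myoepithelial markers had 0 past 2-fold. No marker had a signal of 0, and Mpo was under the floor on both arrays. The part of these shifts in the ratios of the early response genes was not tested.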

How the data were processed

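Deposited values were MAS 5 signals, the linear intensity of each probe set, which the authors made with the Affymetrix Microarray Suite 5.0 per the labels. Both arrays had a mean of 250 after 2% was trimmed at each end. No source used here gives the scaling target. The number of arrays limits the precision.

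Symbols came from the platform annotation and were updated through gene identifiers to RefSeq (GRCm38.p6) for 34754 of 34945 probe sets with a single symbol. Another 932 had several and 9160 none, and these were not named. Signals below 77.7, the median signal over both arrays with 64 controls left out, were raised to that floor, and log2 of day 1 over day 0 was taken. A ratio with 1 array at the floor is a bound ("at least"). Each gene is represented by its brightest probe set, by mean signal. The count threshold was 2-fold.

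Members, lists and motifs were chosen with earlier results of these data known. Named were all members, the 3 largest absolute ratios of each gene list, and a fixed set of paralogs and partners, whatever their values. Tob1, Tob2 and Btg4 were named outside this rule. In the marker lists only sums and counts, Cd14 and Mpo are given. The ratio code was tested on simulated data in which the floor did not act, so the floor and the choice of probe set were not tested. Alternatives were 5 scalings (median centring, quantile, lowess with a span of 0.3, hybridisation controls below 50% of the highest signal, 43 ribosomal protein genes), each with the probe set of a gene held, floors at the 25th and 75th percentile, a pseudocount of 16, other probe set rules, and 1.5-fold and 3-fold thresholds. Python 3.11.15, pandas 2.3.3 and statsmodels 0.14.6 were used.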

Additional observations from a re-analysis of the deposited data

How the results depend on the processing

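Of 12 alternatives, none gave a gene of the 10 at least 2-fold lower. At the 1.5-fold threshold Zfp36 counted as lower (1 lower, 5 higher). The number past the threshold upward, 4 as deposited, was 7 under hybridisation control scaling and 2 at a 3-fold threshold, and between 3 and 5 elsewhere. The median log2 ratio, 0.70 as deposited (9 genes), was 1.56 under hybridisation control scaling (10 genes, Egr3 included). By construction that scaling adds a constant to each ratio above the floor, and these medians are also not over the same genes. Ier3, Btg2 and Egr1 were at least 2-fold higher in every scaling, floor and probe set rule that gave them a value (9, 10 and 10), and Ier5 in 9 of 10, the exception being the mean of its probe sets (0.62). Of 85 values of single genes, 11 moved by more than 0.56 log2, 9 of them under hybridisation control scaling, and 0 genes past 2-fold changed sign. Ier3, Zfp36 and Myc have no value without probe sets shared between transcripts. With 1 array per day no array could be left out. No paired analysis was possible because each group has 1 array. Dim genes are limited by the floor: Egr3 was under it, and Egr2 gave a bound.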
